A study of Mus musculus with 36 samples.

Results

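The response to behaviour described here is the set of genes whose RNA was higher, or lower, in the same direction in 4 regions of the mouse brain after an animal had been placed in a context or given foot shock. Of the regions, CA1 and CA3 are fields of the hippocampus, and the lateral and medial entorhinal cortex (LEC and MEC) supply it with much of its cortical input. The members were chosen from 36 libraries by 1 model with region as a block: 24 libraries from the fear group (foot shock) and the context group (exposure to the context) were set together against 12 home cage libraries. A gene counted as shared where its edgeR quasi-likelihood p, adjusted by the method of Benjamini and Hochberg over all genes tested, was under 0.05 and where its estimates in CA1, CA3, LEC and MEC had one sign. Of 17875 genes tested, 4022 (22.5%) were called and 3483 (19.5%) were also of one sign in the 4 regions, 2233 of them higher (12.5%) and 1250 lower (6.99%) after behaviour. The counts rest in part on treating libraries as separate animals and on 1 set of controls: without the home cage libraries numbered 2, 2138 genes were called and 1946 were of one sign, and on the 9 unit means described next, limma called 644, of which 615 were of one sign.

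All mice were wild type (WT) of the BL/6 background. They were housed singly and handled for 3 minutes a day over 5 days, home cage mice included, so the home cage group is a handled group. Tissue was taken 90 minutes after the behaviour. Each of the 12 groups of region and condition had 3 libraries, and the labels do not say which libraries came from 1 mouse. The design text has all 4 regions taken from each mouse, so libraries of 1 condition with the same number may be 1 animal, and p-values below measure the spread between these libraries, which may in part be technical. Those libraries were therefore also averaged over regions into 9 units, 6 after behaviour and 3 in home cage, for an exact permutation test whose smallest possible two-sided p was 0.0119.

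When neurons fire, calcium entry and the MAP kinase pathway switch on a first wave of genes within minutes, many of which encode transcription factors of the FOS and EGR families. A later wave encodes proteins that act at synapses or are secreted, such as the scaffold HOMER1 and the growth factor BDNF. Novelty and stress also raise circulating glucocorticoid, whose receptor binds DNA in neurons and glia and raises a further group of targets. Cells that make more secreted and membrane protein raise the chaperones of the endoplasmic reticulum. In tissue made of many cell types, fewer cells of a type and less RNA per cell cannot be told apart.

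The shallowest library held 21871412 counts, the deepest 68974340 and the median one 28098008. The marker lists of CA1 and CA3 followed the labels: the median library had a mean of 6.86 log2 CPM (counts scaled to a common library size) over CA1 pyramidal cell markers in CA1, against 4.56 in CA3, 4.46 in LEC and 5.29 in MEC, and the CA3 list was at 5.22 in CA3 and at 2.67 to 3.11 elsewhere. On the first principal component of the region-centred values (38.8% of the variance), 4 libraries stood apart: CA3 context 2 (53.5), CA3 context 3 (34.1), CA3 home cage 2 (-39.5) and LEC home cage 3 (34.2), with the others between -21.4 and 20.2. Without these 4 libraries, 4042 genes were called and 3178 were also of one sign.

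The rises were many and mostly small, and the falls were fewer and larger. The median log2 fold change of behaviour over home cage was 0.282 for the shared genes that rose and -0.397 for those that fell, while the median over all 17875 genes was -0.0216. Of the shared genes, 88 differed by a factor of 2 or more. Of the shared rises with an annotated gene type 99.2% were protein coding, against 86.0% of the falls with one. Protein coding genes made up 86.4% of all genes tested, those without an annotated type counted in. Processed pseudogenes made up 5.95% of the falls with an annotated type and 3.33% of all genes tested. Region sizes were uneven: the shared rises had a median of 0.362 in CA1 and 0.409 in CA3, with 0.152 in LEC and 0.228 in MEC, and the shared falls had medians of -0.436, -0.453, -0.265 and -0.307 in the same order. CA3 held the largest estimate of the 4 regions for 1663 of the 3483 shared genes and LEC the smallest for 1909. A stricter rule, an unadjusted p under 0.05 in each of the 4 regions with one sign, was met by 190 genes (1.06%), 129 higher (0.722%) and 61 lower (0.341%). All 190 were among the called, which is in part set by the rule, since both tests use the same libraries. Taken one region at a time within the same 36 libraries, edgeR called 1505 genes in CA1 (8.42%), 1024 of them higher (5.73%), and 3441 in CA3 (19.3%), 2008 of them higher (11.2%). In MEC it called 53 (0.297%), 51 of them higher (0.285%), and in LEC 0 (0%). The 4 libraries that stood apart came from CA3 and LEC. Median sizes, ranks and single-region counts are not given without them.

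Each region was then set aside and the shared genes chosen again from the other 3. Among 1227 rises chosen without CA1, 94.8% were also higher after behaviour in a separate fit of the 9 CA1 libraries, where 46.3% of all genes were higher, and 71.5% had an unadjusted p under 0.05 there in that direction, against 14.0% of all genes. For 1636 rises chosen without CA3 the share in the same direction was 92.7%, against 48.3% of all genes, and for 1540 chosen without MEC it was 94.4%, against 47.7%. The share was lowest in LEC: 80.7% of 2415 rises went the same way there, against 47.7% of all genes, with a median of 0.0932, and 7.0% reached p under 0.05, against 3.03%. Falls went the same way in 93.6% of 730 genes for CA1, 77.1% of 1149 for CA3, 68.7% of 1682 for LEC and 90.9% of 886 for MEC, against 51.7% to 53.7% of all genes. Where regions came from the same mice, the region set aside was not an independent sample of animals. Transcript length, which direction followed in each region (described below), was also not held level between the chosen genes and all genes. These shares therefore do not tell a gene's own response from that common trend.

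**Figure D1:**
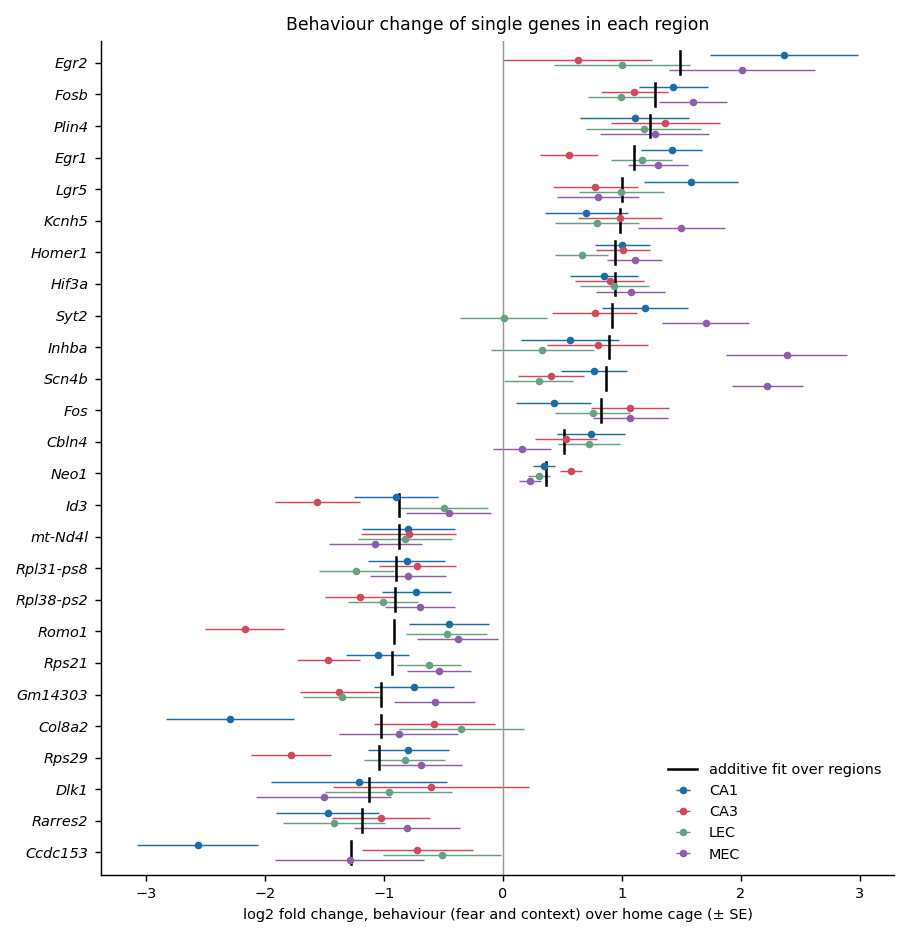
Log2 fold change of behaviour (fear and context, 24 libraries) over home cage (12 libraries) on the x axis for the 12 largest rises, the 12 largest falls, and Cbln4 and Neo1, with the estimate ± SE in each region as points and bars and the additive estimate as a black tick. Every point lies on the same side of 0 as their tick, with Syt2 in LEC at 0.01 the nearest to 0 and Inhba and Scn4b in MEC at 2.38 and 2.22 far to the right of the other regions.

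Transcription factors of the first wave led the rises, with Egr2, Fosb and Egr1 among the 4 largest of the genes named for size. Of 29 rapid activity-regulated genes, 10 were called higher (34.5%, against 13.6% of all genes tested) and 0 lower, and each of the 10 was of one sign in the 4 regions. The list's median was 0.164, against -0.0216 over all genes, and it was uneven: 0.239 in CA1 and -0.14 in CA3, with 0.222 in LEC and 0.389 in MEC. The 10 were Fosb, Egr2, Egr1, Fos, Fosl2, the phosphatase Dusp6, Ier5, Trib1, Klf10 and Fbxo33.

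Fosb (ENSMUSG00000003545, chr7:19302696-19310051, minus strand, mm10) encodes a partner of JUN proteins in the AP-1 factor, and a stable splice form of it builds up with repeated activity. In CA1 it ran from 4.35 through a median of 5.86 to 13.7 CPM after behaviour, against 3.33, 1.95 and 2.83 CPM in home cage. In CA3 the behaviour libraries held 6.41, 10.6 and 12.98 CPM (lowest, median, highest) and the home cage libraries 4.69, 4.85 and 4.69. The groups did not overlap in any region: LEC had 10.4, 13.4 and 15.7 CPM after behaviour, against 8.14, 7.03 and 4.45 in home cage, and MEC had 12.6, 13.4 and 21.9, against 6.05, 4.00 and 4.83. The additive log2 fold change was 1.27 ± 0.14 (SE; adjusted p = 5.32e-07), at 1.43 in CA1 and 1.10 in CA3, with 0.99 in LEC and 1.59 in MEC. Fos itself, the founding member of the family, rose by 0.82 ± 0.16 on the log2 scale (adjusted p = 0.000273), least in CA1 (0.43).

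Egr1 (ENSMUSG00000038418), a zinc finger factor much used to mark active neurons, had 112, 240 and 428 CPM after behaviour in CA1 (lowest, median, highest), against 130.5, 63.9 and 87.5 in home cage. In CA3 it had 74.5, 91.5 and 126 CPM after behaviour, against 48.3, 80.4 and 66.3, so that the groups overlapped in CA1 and CA3. They were apart in LEC, with 138, 149 and 186 CPM after behaviour, against 83.4, 76.8 and 47.0, and in MEC, with 209, 233 and 312, against 106, 90.0 and 100.4. Its log2 fold change was 1.10 ± 0.14 (adjusted p = 1.78e-06). Egr2, its relative, had the largest estimate of all named rises, 1.49 ± 0.32 (adjusted p = 0.000844), at low levels. Egr2 in CA1 ran from 1.83 through 3.09 to 19.96 CPM after behaviour, against 1.76, 0.731 and 0.566 in home cage, and in CA3 from 0.836 through 1.15 to 2.72, against 0.758, 1.15 and 0.819. The highest of these libraries, CA1 context 2, lay far above the other CA1 libraries.

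Promoters of Fosb and Egr2 are shown because both genes had estimates above 0 in every region and these windows hold 1 of 6 motifs that were searched on both strands. The windows run from 250 bases before to 50 bases after an annotated start in RefSeq (GRCm38.p6, the assembly also called mm10), 5′ to 3′ on the gene's strand, with the match in capitals. In Fosb (chr7:19309996-19310295, minus strand) the capitals are the EGR motif GCGNGGGCG, which begins 50 bases before the start. In Egr2 (chr10:67537619-67537918, plus strand, 1 of 5 windows of the gene) they are the SRF CArG box, the site of serum response factor, 72 bases before the start. Another window of Egr2, not shown, holds an E-box.
Fosb: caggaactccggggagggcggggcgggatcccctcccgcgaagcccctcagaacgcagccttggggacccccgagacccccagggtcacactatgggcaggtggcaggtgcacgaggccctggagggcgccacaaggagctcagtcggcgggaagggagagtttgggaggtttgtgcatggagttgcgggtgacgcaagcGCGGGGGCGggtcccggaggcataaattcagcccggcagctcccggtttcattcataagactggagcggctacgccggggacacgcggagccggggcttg
Egr2: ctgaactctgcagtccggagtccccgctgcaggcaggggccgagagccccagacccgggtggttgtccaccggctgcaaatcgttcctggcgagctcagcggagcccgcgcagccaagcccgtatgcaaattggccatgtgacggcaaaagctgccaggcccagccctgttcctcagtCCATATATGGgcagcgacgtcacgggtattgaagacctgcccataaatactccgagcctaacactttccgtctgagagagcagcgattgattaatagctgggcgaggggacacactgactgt
The EGR motif was present in 16.9% of 1741 shared rises and 8.66% of 889 shared falls with a window, in 11.5% of 12673 tested genes and in 5.55% of all 32851 windows. The CArG box was in 1.95% of shared rises, 1.35% of shared falls, 1.68% of tested genes and 1.63% of all windows. A gene with several windows has more chances of a match, and a match in these letters is a description of the sequence, not evidence of a bound site.

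Several first-wave genes did not meet the test. Arc, which encodes a protein that removes AMPA receptors from synapses, had a log2 fold change of 0.25 ± 0.21 (adjusted p = 0.438), at 0.42 in CA1 and -0.54 in CA3, with 0.17 in LEC and 1.09 in MEC. In MEC, Arc ran from 41.8 through 71.8 to 138 CPM after behaviour and from 31.04 through 38.1 to 41.0 CPM in home cage, without overlap. In CA3 it ran from 38.1 through 62.1 to 90.8 CPM after behaviour and from 62.3 through 80.1 to 126 CPM in home cage. Egr3 (0.52 ± 0.21, adjusted p = 0.069), Egr4 (0.53 ± 0.23, adjusted p = 0.0866) and Junb (-0.55 ± 0.37, adjusted p = 0.311) also had estimates of mixed sign, with Junb at -2.22 in CA3 and 0.50 in CA1. The CA3 value of Junb turned on CA3 home cage 2, at 34.9 CPM, while the other home cage libraries there held 3.62 and 3.18 CPM and the behaviour libraries 0.509 to 6.22 CPM. Without the 4 libraries that stood apart, that one among them, the additive estimate of Junb was 0.09 (adjusted p = 0.838) and that of Egr3 0.70 (adjusted p = 0.0103). For Npas4, the estimate was -0.01 ± 0.13 (adjusted p = 0.982).

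**Figure D2:**
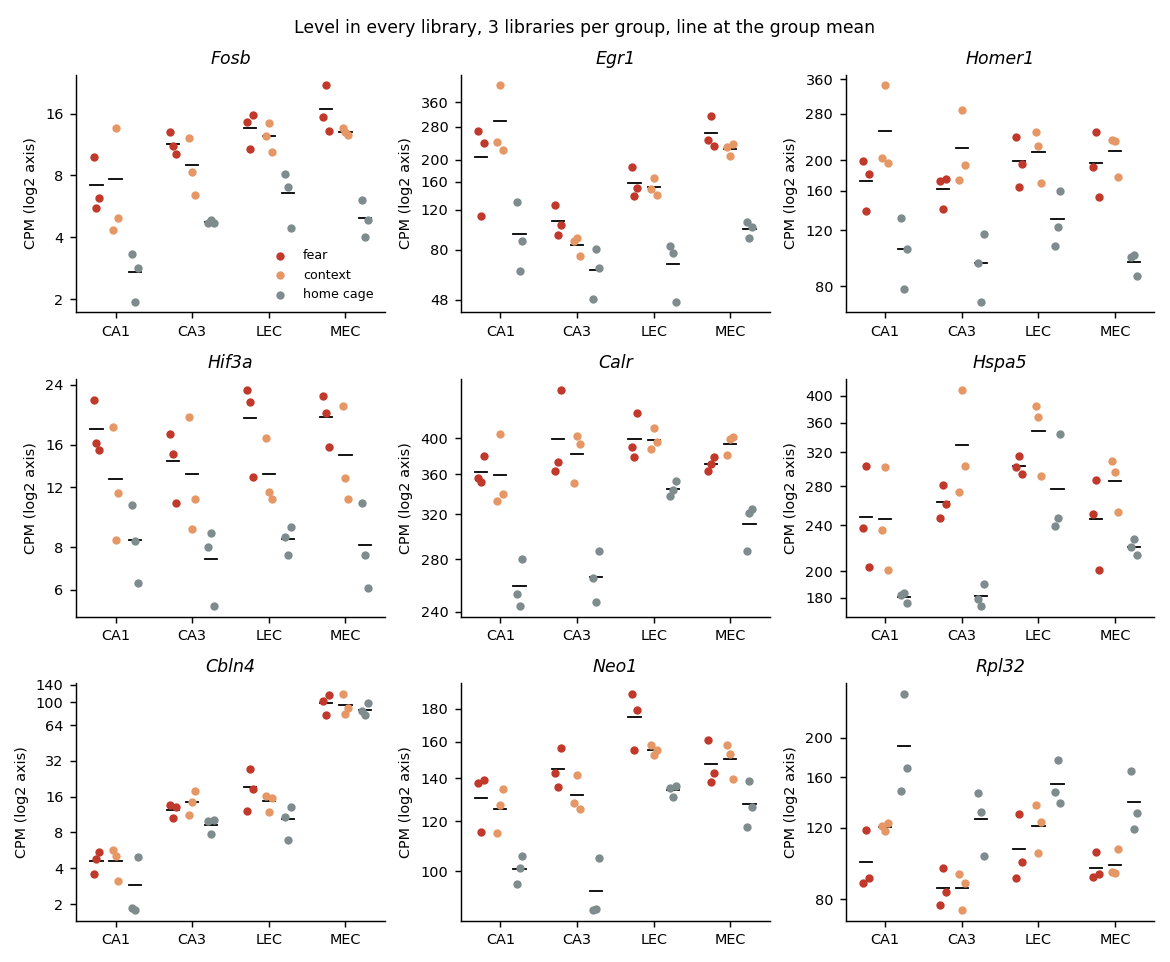
Level of 9 genes in every library, as CPM on a log2 axis, for fear, context and home cage in each region (3 libraries per group, with a line at the group mean). Fosb, Homer1 and Calr are higher in every behaviour library than in any home cage library of the same region and Rpl32 is lower, while Egr1, Hif3a, Hspa5, Neo1 and Cbln4 overlap in at least 1 region.

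Genes of the later wave rose as well. Of 32 delayed activity-regulated genes, 18 were called higher (56.2%, against 13.6% of all genes tested), 16 of them of one sign, and 0 lower, with a median of 0.351 (0.262 in CA1 and 0.326 in CA3, with 0.176 in LEC and 0.466 in MEC). Homer1 (ENSMUSG00000007617, chr13:93299635-93405129, plus strand), whose short activity-regulated form uncouples glutamate receptors from the scaffold, was one of 38 genes whose libraries did not overlap in any region. It had 138, 197 and 345 CPM after behaviour in CA1, against 131, 78.2 and 105 in home cage, and 140.3, 173 and 289 CPM in CA3, against 94.9, 71.5 and 117. LEC had 164, 208 and 246 CPM after behaviour, against 107, 123.1 and 160.1 in home cage, and MEC had 153, 210.4 and 246, against 98.6, 100.1 and 86.4. The change was 0.94 ± 0.11 on the log2 scale (adjusted p = 1.4e-06). These values are sums over a gene, so the long and short forms of Homer1 are not separated.

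Plk2, a kinase that trims synaptic strength in active neurons, rose by 0.44 ± 0.06 (adjusted p = 8.88e-06). Plk2 ran from 362 through 464 to 544 CPM after behaviour in CA1, against 233 through 277 to 340 CPM in home cage, and was apart in CA3 as well (238 to 287 CPM, against 175 to 194). In LEC (221 to 286 CPM after behaviour, against 188 to 231) and MEC (207 to 244, against 180 to 208) its groups overlapped. Bdnf rose by 0.43 ± 0.09 (adjusted p = 0.000516), with 0.84 in MEC and 0.27 to 0.33 in the other regions. In MEC, Bdnf ran from 29.8 through 34.2 to 48.6 CPM after behaviour and from 19.1 through 19.1 to 21.9 CPM in home cage. The nuclear receptors Nr4a3 (0.64 ± 0.11) and Nr4a2 (0.56 ± 0.14), the sorting receptor Sorcs3 (0.62 ± 0.12), the prohormone convertase Pcsk1 (0.52 ± 0.11), the pentraxin Nptx2 (0.71 ± 0.18), which clusters AMPA receptors, and the Ras activator Rasgrp1 (0.43 ± 0.08) rose as well. Inhba, the activin subunit, rose by 0.89 ± 0.24 (adjusted p = 0.00713) but at 2.38 in MEC, where its behaviour libraries held 0.506 to 2.54 CPM and its home cage libraries 0 to 0.361 CPM. Tll1 and Nfil3 were called without one sign, with -0.04 in LEC for Tll1 and -0.01 in CA1 for Nfil3, and Tll1 was not called without the fear libraries numbered 3 (0.31, adjusted p = 0.174). Of the 32 delayed genes, limma on the 9 unit means called 7 higher and 0 lower. The lists that follow are to be read against the same shares of all genes tested, 13.6% higher and 8.86% lower.

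Plk2 stands for the later wave in sequence. Its window (chr13:110394794-110395093, plus strand, RefSeq GRCm38.p6) holds the full cAMP response element TGACGTCA, in capitals, 62 bases before the start. This palindrome was in 3.68% of shared rises, 3.6% of shared falls, 3.18% of tested genes and 1.79% of all windows. How many genes of the delayed list hold it was not counted.
Plk2: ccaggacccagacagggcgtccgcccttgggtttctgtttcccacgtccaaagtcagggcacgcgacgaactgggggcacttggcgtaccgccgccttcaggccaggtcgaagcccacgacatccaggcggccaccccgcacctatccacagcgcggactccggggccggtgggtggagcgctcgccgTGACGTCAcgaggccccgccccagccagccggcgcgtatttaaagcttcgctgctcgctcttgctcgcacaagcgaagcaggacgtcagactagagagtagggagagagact

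Of 14 inhibitors of the MAP kinase pathway, which are themselves targets of the pathway, 7 were called higher, all of one sign, and 0 lower (median 0.288). The nuclear phosphatase Dusp4 rose by 0.75 ± 0.10 (adjusted p = 3.73e-06), with 0.94 in LEC and 1.13 in MEC, above 0.58 in CA1 and 0.39 in CA3. Others were Dusp6 (0.56 ± 0.10), which acts on ERK in the cytosol, Errfi1 (0.41 ± 0.08), an inhibitor of the EGF receptor, and Spred2 (0.40 ± 0.06).

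Of the 12 largest rises, 2 (Plin4 and Hif3a) were targets of the glucocorticoid receptor. Of 21 such targets tested, 9 were called higher, all of one sign, and 1 lower, with a median of 0.24. On the 9 unit means 2 of the 21 were called higher and 0 lower, and Plin4, Hif3a, Sgk1, Cdkn1a, Tsc22d3, Zbtb16, Fkbp5 and Mt1 were not called. The list's mean level relative to each region was 0.226, 0.290 and 0.131 (log2 CPM) in the fear units and 0.122, -0.129 and -0.150 in the context units, against -0.0909, -0.0795 and -0.321 in the home cage units, so that 2 context units lay below 2 home cage units. Plin4, a lipid droplet coat protein, rose by 1.23 ± 0.22 (adjusted p = 0.000119), at 1.11 in CA1 and 1.36 in CA3, with 1.18 in LEC and 1.27 in MEC. Hif3a, a hypoxia-inducible factor subunit, rose by 0.94 ± 0.14 (adjusted p = 1.09e-05), at 0.85, 0.90, 0.94 and 1.07 in the same order. Both had region estimates that lay closer together than those of Egr2 or Inhba.

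Hif3a had 8.42, 15.8 and 21.7 CPM after behaviour in CA1, against 10.6, 8.36 and 6.27 in home cage, and 9.08, 13.1 and 19.3 in CA3, against 7.997, 8.79 and 5.39. In LEC it had 11.1, 14.8 and 23.2 CPM after behaviour, against 8.59, 7.57 and 9.15, and in MEC 11.1, 17.8 and 22.2, against 10.8, 7.58 and 6.08, so that CA1 alone overlapped. Klf9, a Krüppel-like factor, rose by 0.48 ± 0.07 (adjusted p = 5.96e-06). Sgk1, a kinase that controls ion channels and transporters, rose by 0.68 ± 0.13 (adjusted p = 0.000171), with fear libraries at 71.7 to 104 CPM in CA1, context libraries at 48.7 to 57.5 CPM and home cage libraries at 40.3 to 56.1 CPM. Cdkn1a (0.75 ± 0.16), Tsc22d3 (0.46 ± 0.09), Zbtb16 (0.44 ± 0.09), Fkbp5 (0.36 ± 0.08), which encodes a co-chaperone of the receptor, and Errfi1 were the other rises. Mt1, a metal-binding protein, was the one fall (-0.95 ± 0.24, adjusted p = 0.0032), at -2.00 in CA3 and -0.26 in MEC. In CA3, Mt1 had 9.86 to 42.97 CPM after behaviour, against 70.2, 219 and 35.1 CPM in home cage, and without CA3 home cage 2, the highest, the additive estimate was -0.63 (adjusted p = 0.0176).

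Of 19 clock genes, 9 were called higher, 6 of one sign, and 0 lower (median 0.204). Bhlhe40, a repressor of the clock that is also a target of neuronal activity, rose by 0.73 ± 0.11 (adjusted p = 8.88e-06), at 0.96 in CA1 and 0.59 in CA3, with 0.39 in LEC and 0.99 in MEC. Rora (0.31 ± 0.07), Hlf (0.32 ± 0.08), Cry2 (0.21 ± 0.05), Clock (0.21 ± 0.07) and Tef (0.11 ± 0.04) were smaller. Of 61 alternative settings, Tef lost its call in 43, Clock in 9 and Hlf in 5. On the 9 unit means 1 of the 19 was called. Per2, a core repressor that also responds to glucocorticoid, was called (0.32 ± 0.08, adjusted p = 0.00238) but was at -0.06 in CA3. The labels give no clock time for the groups. With a correction for transcript length and GC content, described below, 5 of the 19 were called higher and 1 lower.

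Of 20 chaperones and related genes of the endoplasmic reticulum, 13 were called higher, all of one sign, and 0 lower (median 0.254, at 0.284 in CA1 and 0.464 in CA3, with 0.2 in LEC and 0.177 in MEC). Calr (ENSMUSG00000003814, chr8:84841850-84846934, minus strand) encodes calreticulin, a calcium store and glycoprotein chaperone. It had 333, 354 and 406 CPM after behaviour in CA1, against 253, 244 and 280.1 in home cage, and 351, 383 and 462 in CA3, against 265, 247 and 287. LEC had 379, 393 and 431 CPM, against 338, 343 and 352, and MEC had 363, 379 and 402, against 287, 321 and 325. No behaviour library of any region reached down to a home cage library. The log2 fold change was 0.38 ± 0.05 (adjusted p = 1.74e-06).

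Hspa5, the master chaperone also called BiP, rose by 0.41 ± 0.08 (adjusted p = 0.000217). It had 201, 236 and 303 CPM after behaviour in CA1, against 182.04, 183 and 176 in home cage, and 246, 277 and 410.2 in CA3, against 179, 174 and 190.3. In LEC it had 291, 309 and 385 CPM, against 239, 247 and 345, and in MEC 201, 269.9 and 309, against 220.5, 228 and 213. Hspa5 was apart in the hippocampal fields and overlapped in the entorhinal cortex. Its cofactor Sdf2l1 (0.53 ± 0.11), the oxidoreductase Pdia4 (0.41 ± 0.07), the exchange factor Hyou1 (0.43 ± 0.07), the degradation adaptor Sel1l (0.47 ± 0.07) and Xbp1 (0.35 ± 0.06), a transcription factor of the unfolded protein response, rose too. Canx (0.18 ± 0.07, adjusted p = 0.0471) and Dnajc3 (0.17 ± 0.06, adjusted p = 0.0282) were called at small sizes, led by CA3 (0.51 and 0.39).

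Promoters of 4 of these genes are shown because each was called and holds the full ER stress element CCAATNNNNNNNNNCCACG (or its reverse complement), the site of ATF6 with NF-Y. Windows and strands are chr8:84846882-84847181 (minus) for Calr, chr2:34771840-34772139 (plus) for Hspa5, chr11:50325624-50325923 (minus) for Canx and chr14:118937682-118937981 (plus) for Dnajc3, from RefSeq GRCm38.p6. Capitals mark the element, which begins 162, 65, 145 and 105 bases before the start in that order, and in Calr also an E-box, CACGTG, 224 bases before it.
Calr: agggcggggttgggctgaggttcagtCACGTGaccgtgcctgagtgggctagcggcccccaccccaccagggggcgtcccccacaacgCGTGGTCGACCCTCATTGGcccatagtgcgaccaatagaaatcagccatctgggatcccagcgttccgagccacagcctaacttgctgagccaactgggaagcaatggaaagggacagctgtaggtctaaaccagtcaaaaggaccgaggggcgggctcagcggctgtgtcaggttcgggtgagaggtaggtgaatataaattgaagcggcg
Hspa5: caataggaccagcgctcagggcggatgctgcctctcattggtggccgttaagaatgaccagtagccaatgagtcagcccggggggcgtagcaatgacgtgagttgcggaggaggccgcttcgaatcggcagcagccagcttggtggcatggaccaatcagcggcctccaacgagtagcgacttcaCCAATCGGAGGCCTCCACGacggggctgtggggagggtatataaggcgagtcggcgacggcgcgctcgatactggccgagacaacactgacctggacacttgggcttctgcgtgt
Canx: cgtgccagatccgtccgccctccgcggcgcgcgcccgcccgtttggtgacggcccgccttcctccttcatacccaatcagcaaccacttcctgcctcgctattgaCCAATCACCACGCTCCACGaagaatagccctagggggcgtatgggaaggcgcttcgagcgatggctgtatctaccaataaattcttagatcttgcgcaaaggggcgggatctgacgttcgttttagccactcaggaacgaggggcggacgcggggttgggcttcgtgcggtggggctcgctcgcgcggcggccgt
Dnajc3: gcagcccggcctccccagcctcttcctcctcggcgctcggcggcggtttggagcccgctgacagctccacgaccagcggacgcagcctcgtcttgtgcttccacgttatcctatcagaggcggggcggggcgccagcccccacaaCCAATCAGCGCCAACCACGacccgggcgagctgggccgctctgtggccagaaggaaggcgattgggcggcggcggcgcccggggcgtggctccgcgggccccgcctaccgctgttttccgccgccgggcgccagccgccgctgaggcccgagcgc
The element was in 6 shared rises (0.345%), namely Calr, Hspa5, Canx, Dnajc3, Adcy3 and Spats2l, in 0 shared falls, in 20 of the tested genes (0.158%) and in 0.119% of all windows. Creld2, Hsp90b1 and Pdia6, of the same chaperone list, also hold it and were not called in the additive fit. Their estimates were 0.08 (adjusted p = 0.531), 0.10 (adjusted p = 0.271) and 0.08 (adjusted p = 0.238). The E-box was in 11.8% of shared rises, 10.9% of shared falls, 10.8% of tested genes and 7.15% of all windows. The heat shock element GAANNTTCNNGAA was in 0.804% of shared rises, 0.9% of shared falls, 0.544% of tested genes and 0.603% of all windows.

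A second chaperone list, mostly of cytosolic proteins, also holds Hspd1 and Hspe1, the chaperonin and cochaperonin of mitochondria. Of its 19 genes, 9 were called higher, Hspd1 among them, all of one sign, and 1 lower (median 0.164). The 9 unit means gave 3 called higher and 0 lower. Hsph1, a nucleotide exchange factor of HSP70, rose by 0.40 ± 0.06 (adjusted p = 1.25e-05), Hsp90ab1 by 0.36 ± 0.06 and Hspa4 by 0.35 ± 0.07, and Stip1, which hands clients from HSP70 to HSP90, by 0.25 ± 0.04. Hspe1 fell by 0.31 ± 0.07 on the log2 scale (adjusted p = 0.00239).

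Cerebellin 4 and neogenin 1, the pair named in the title of the study, were both among the shared rises. Cerebellins are secreted synaptic organisers that bridge neurexins and postsynaptic partners, and Neo1 is a receptor of the DCC family. Neo1 (ENSMUSG00000032340, chr9:58874687-59036441, minus strand) had 115, 131 and 139 CPM after behaviour in CA1, against 95.6, 101 and 106 in home cage, and 125, 139 and 156 in CA3, against 87.0, 87.2 and 105. In LEC it had 152, 157 and 190.2 CPM, against 135, 131 and 136, and in MEC 138, 148 and 161, against 117, 139 and 126. The groups were apart in CA1, CA3 and LEC and overlapped in MEC, where the lowest behaviour library was under the highest home cage library. Neo1 rose by 0.36 ± 0.05 (adjusted p = 5.73e-06), at 0.35 in CA1 and 0.57 in CA3, with 0.30 in LEC and 0.22 in MEC. With the length and GC correction its estimate was 0.16 (adjusted p = 0.00078).

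Cbln4 (ENSMUSG00000067578, chr2:172036233-172043466, minus strand) was a gene of MEC above all: 78.2, 95.3 and 117 CPM after behaviour there, against 83.8, 77.6 and 97.5 in home cage. Cbln4 was lower in LEC (11.8, 15.99 and 27.5 CPM, against 10.8, 6.89 and 13.2), in CA3 (10.6, 13.3 and 17.8, against 10.03, 7.75 and 10.1) and in CA1 (3.12, 4.98 and 5.68, against 1.85, 1.79 and 5.01). The behaviour and home cage libraries overlapped in each region except CA3. The log2 fold change was 0.51 ± 0.13 (adjusted p = 0.00416), at 0.74 in CA1 and 0.53 in CA3, with 0.72 in LEC and 0.16 in MEC, so the smallest estimate stood in the region of the highest level. Over the 9 units the groups overlapped, with an exact two-sided permutation p of 0.0238. Cbln4 was not called without the home cage libraries numbered 2 (0.37, adjusted p = 0.0845) or on the unit means (limma, 0.55, adjusted p = 0.071).

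Of 21 genes of the cerebellin and neogenin list, which also takes in neurexins, netrin receptors and their ligands, 9 were called higher, 7 of one sign, and 1 lower, with a median of 0.18. Nrxn3, a presynaptic partner of cerebellins, rose by 0.59 ± 0.09 (adjusted p = 1.03e-05). It ran from 255 through 296 to 372 CPM after behaviour in CA1, against 123.4 through 194 to 203 CPM in home cage, and was apart in CA3 and MEC too. The netrin receptor Dcc rose (0.67 ± 0.16, and 1.04 without the home cage libraries numbered 3), and C1ql1, a C1q-like ligand, was the one fall, at -0.45. With the length and GC correction 4 of the 21 were called higher and 0 lower, and on the 9 unit means 2 higher and 0 lower.

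Ion channels held the highest share of calls of the lists that rose. Of 24 potassium channel genes, 19 were called higher, all of one sign, and 0 lower, with a median of 0.394, and of 8 sodium channel genes, 6 were called higher, 5 of one sign, and 0 lower, with a median of 0.325. Kcnq3, a subunit of the M current that holds neurons below threshold, had 59.7, 82.1 and 118 CPM after behaviour in CA1 (lowest, median, highest), against 21.7, 50.8 and 52.8 in home cage. In CA3 it ran from 47.4 through 61.7 to 79.9 CPM after behaviour, against 21.6 through 32.2 to 55.5, in LEC from 35.9 to 64.5, against 34.0 to 35.8, and in MEC from 49.5 to 66.4, against 30.7 to 37.8. CA3 was the one region where its groups overlapped. The change of Kcnq3 was 0.74 ± 0.12 on the log2 scale (adjusted p = 5.57e-05).

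Kcna2 (0.72 ± 0.12), Kcna1 (0.56 ± 0.09) and Kcnq5 (0.56 ± 0.10) rose beside it, as did Kcnh5 (0.98 ± 0.18), named for its size. Lgr5, a receptor for R-spondins, was another of the largest rises (1.00 ± 0.18, adjusted p = 0.000112). Scn8a (0.48 ± 0.08) and Scn2a (0.42 ± 0.08), the pore subunits of the axon's sodium channels, and the accessory subunit Scn2b (0.35 ± 0.07) rose. Scn4b, a further accessory subunit, rose by 0.87 ± 0.19 (adjusted p = 0.000981) but was at 2.22 in MEC, with behaviour libraries from 16.6 through 29.0 to 54.6 CPM and home cage libraries from 6.19 through 7.12 to 7.54 CPM. Syt2, a calcium sensor of synaptic vesicles, had a like pattern: 0.91 ± 0.21 (adjusted p = 0.00144), with 1.70 in MEC and 0.01 in LEC. Scn4b is also 1 of the 5 subiculum markers, and the other 4 were not called. The region by behaviour interaction of Scn4b had an unadjusted p of 9.2e-05. With the length and GC correction 12 potassium and 6 sodium channel genes were called higher and 0 lower. The 9 unit means gave 4 potassium and 3 sodium channel genes called higher and 0 lower.

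Receptors and pumps followed with smaller shares. Of 22 glutamate receptor genes, 7 were called higher and 0 lower (median 0.217), led by the NMDA receptor subunits Grin2a (0.80 ± 0.14, adjusted p = 6.45e-05) and Grin2b (1.01 ± 0.22, adjusted p = 0.00101) and the metabotropic receptors Grm7 (0.28 ± 0.07) and Grm5 (0.32 ± 0.08). Of 14 GABA receptor genes, 6 were called higher and 0 lower (median 0.169), among them Gabbr2 (0.48 ± 0.09), Gabrg3 (0.61 ± 0.12) and Gabrb2 (0.38 ± 0.10), the last with -0.02 in LEC. Of 18 postsynaptic scaffold genes, 6 were called higher, 3 of one sign, and 0 lower (median 0.129), with Homer1 and Dlg3 (0.33 ± 0.06) at the head. Of 20 calcium pumps and sensors, 7 were called higher, all of one sign, and 0 lower (median 0.108). Those with the smallest p were Atp2a2, the calcium pump of the endoplasmic reticulum (0.54 ± 0.08), Atp2b2, a pump of the plasma membrane (0.52 ± 0.09), the sodium-calcium exchanger Slc8a1 (0.75 ± 0.14) and the kinase Camk4 (0.44 ± 0.10). The length and GC correction gave 6 glutamate receptor genes called higher and 1 lower (median 0.0715). It gave 5 and 0 of the GABA list, 4 and 2 of the scaffold list, and 7 and 0 of the calcium list. On the unit means 0 glutamate receptor, 2 GABA receptor, 2 scaffold and 3 calcium list genes were called higher, and 0 lower.

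Signalling by activin and TGF-beta gave 7 of 15 called higher, 6 of one sign, and 0 lower (median 0.251), with Skil (0.37 ± 0.07), Smad4 (0.29 ± 0.05), Acvr1 (0.34 ± 0.07) and Acvr1b (0.34 ± 0.08) besides Inhba. The length and GC correction gave 5 higher and 1 lower of the 15 (median 0.142). On the unit means 0 of the 15 were called. Among 18 enzymes that modify DNA or histones, 5 were called higher and 1 lower (median 0.0802), including the demethylase Kdm5c (0.35 ± 0.06) and the acetyltransferases Ep300 (0.36 ± 0.06) and Kat6a (0.27 ± 0.06). With the length and GC correction that list had 5 higher and 5 lower, a median of -0.105, and Kat6a at 0.05 (adjusted p = 0.37). Neuropeptides showed no common direction: of 17, Crhbp, which binds corticotropin-releasing hormone, was the one rise (0.33 ± 0.10) and Tac2 the one fall (-0.47 ± 0.14), with a median of -0.204. Tac2 was not called without the home cage libraries numbered 2 (-0.25, adjusted p = 0.315), nor Crhbp without those numbered 3 (0.22, adjusted p = 0.153).

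A much shorter set met the hardest criterion. In 38 genes (0.213% of those tested) every behaviour library lay on the same side of every home cage library in each of the 4 regions, 35 higher and 3 lower. The smallest p of all genes tested belonged to Luzp1, an actin-associated leucine zipper protein, at 0.68 ± 0.07 (adjusted p = 9.73e-08). Luzp1 had 149 to 190.4 CPM after behaviour in CA1, against 80.5 to 120.1 in home cage, 209 to 281 in CA3, against 100.5 to 184, 72.7 to 90.2 in LEC, against 49.6 to 66.4, and 136 to 162 in MEC, against 87.9 to 91.1. Others were Lrrc8c (0.59 ± 0.07), a subunit of volume-regulated anion channels, Robo2 (0.50 ± 0.08), a guidance receptor for SLIT proteins, Mtmr4 (0.47 ± 0.06), a lipid phosphatase, and Iars (0.34 ± 0.04), the isoleucine tRNA synthetase, whose region estimates ran from 0.28 to 0.38. The 3 that were lower were Ndufb4, Rpl32 and Rpl26, with longest transcripts of 657 to 971 bases, where that of Luzp1 had 7526. With the length and GC correction, Ddi2 of this set went from 0.26 to 0.03 (edgeR, adjusted p = 0.524) and was not called. Herc2 went from 0.45 to 0.19, Luzp1 from 0.68 to 0.49 and Rpl26 from -0.61 to -0.28. Fosb (1.26), Homer1 (0.93) and Calr (0.39) had estimates close to those of the additive fit. These genes were named after their values were seen.

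Among the gene lists, those for ribosomes and respiration held the highest shares of falls. Of 85 cytosolic ribosomal protein genes, 79 were called lower (92.9%, against 8.86% of all genes tested) and 0 higher, with a median of -0.501 (-0.675 in CA1 and -0.602 in CA3, with -0.357 in LEC and -0.388 in MEC). Rps28 (ENSMUSG00000067288, chr17:33819027-33824562, minus strand), of the small subunit, had 38.9, 43.3 and 51.0 CPM after behaviour in CA1, against 75.3, 96.3 and 65.7 in home cage, and 15.5, 26.0 and 35.9 in CA3, against 58.9, 80.2 and 40.9. In LEC it had 23.5, 32.5 and 41.4 CPM, against 55.8, 64.5 and 35.3, and in MEC 24.4, 27.8 and 34.7, against 46.5, 33.2 and 49.1. CA1 and CA3 were apart, and LEC and MEC overlapped through 1 home cage library each. Its log2 fold change was -0.82 ± 0.10 (adjusted p = 1.74e-06).

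Rpl32, of the large subunit, was apart in every region. It had 87.4, 118 and 123.2 CPM after behaviour in CA1, against 148, 257 and 169 in home cage, and 75.2, 85.4 and 95.4 in CA3, against 146, 131 and 102. In LEC it had 90.2, 114 and 136 CPM, against 147, 176 and 138, and in MEC 90.5, 92.9 and 106, against 166, 119 and 131. Rpl32 fell by 0.58 ± 0.07 on the log2 scale (adjusted p = 2.08e-06). Rps29 (-1.04 ± 0.18), Rps21 (-0.94 ± 0.14), Rpl26 (-0.61 ± 0.08) and Rpl10a (-0.57 ± 0.08) also fell. Many ribosomal protein genes have near-identical pseudogene copies, so that reads can be split between them; 2 such copies, Rpl38-ps2 (-0.91 ± 0.14) and Rpl31-ps8 (-0.90 ± 0.16), were themselves among the 12 largest falls.

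Nuclear genes of the respiratory chain were called lower in 48 of 72 (median -0.338) and higher in 0. With the length and GC correction 25 were called lower and 7 higher, with a median of -0.111. The 9 unit means gave 18 called lower and 0 higher. Ndufb4 of complex I fell by 0.41 ± 0.06 on the log2 scale (adjusted p = 4.02e-06), and the ATP synthase subunits Atp5e (-0.53 ± 0.07) and Atp5l (-0.49 ± 0.07) and the cytochrome oxidase subunit Cox6c (-0.45 ± 0.06) fell. Of 13 protein genes of the mitochondrial genome, 9 were called lower and 0 higher (median -0.366), among them mt-Nd4l (-0.87 ± 0.19), mt-Co2 (-0.83 ± 0.21), mt-Atp6 (-0.81 ± 0.21) and mt-Co3 (-0.79 ± 0.19). With the correction 1 was called lower and 2 higher (median -0.0415), and on the 9 unit means 0 were called. The genes mt-Co2, mt-Atp6 and mt-Co3 were called neither with the correction nor without the home cage libraries numbered 2. Romo1, a small mitochondrial membrane protein, was at -0.92 ± 0.21, with -2.17 in CA3 and -0.38 to -0.48 elsewhere. Romo1 lies across from Nfs1 on the other strand, and how strand was used in counting is not given in the sources used here.

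The largest single falls, those of Ccdc153, Rarres2 and Dlk1, were of another kind. Ccdc153, a gene of ciliated ependymal cells, was at -1.27 ± 0.29 (adjusted p = 0.00132), with -2.57 in CA1 and -0.51 in LEC. Rarres2, which encodes the chemoattractant chemerin, was at -1.19 ± 0.21 (adjusted p = 9.26e-05). Rarres2 had 0.541 to 1.25 CPM after behaviour in CA1, against 1.43 to 3.14 in home cage, 1.14 to 5.74 in CA3, against 2.11 to 7.64, 0.631 to 1.83 in LEC, against 1.07 to 5.86, and 0.537 to 1.04 in MEC, against 1.09 to 1.74. Dlk1 (-1.13 ± 0.31), a NOTCH-like protein, Col8a2 (-1.03 ± 0.28), a collagen, Id3 (-0.87 ± 0.19), an inhibitor of basic helix-loop-helix factors, and Gm14303 (-1.02 ± 0.17), a processed pseudogene, completed the 12 together with the ribosomal and mitochondrial genes above. Dlk1 held only 0 to 1.99 CPM in CA1 and CA3. In LEC it had 6.48 to 30.7 CPM after behaviour, against 67.7, 22.3 and 18.9 in home cage. Dlk1 and Col8a2 were not called without the home cage libraries numbered 2 or on the unit means. Dlk1 also lost its call without MEC, and Col8a2 without CA1. In the choroid plexus list, whose tissue borders the same ventricles, 2 of 7 markers were called lower and 1 higher, with a summed level of 48.6 to 165 CPM after behaviour in CA1, against 65.5 to 135 in home cage. The part of such tissue in the fall of Ccdc153 and Rarres2 was not tested.

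**Figure D3:**
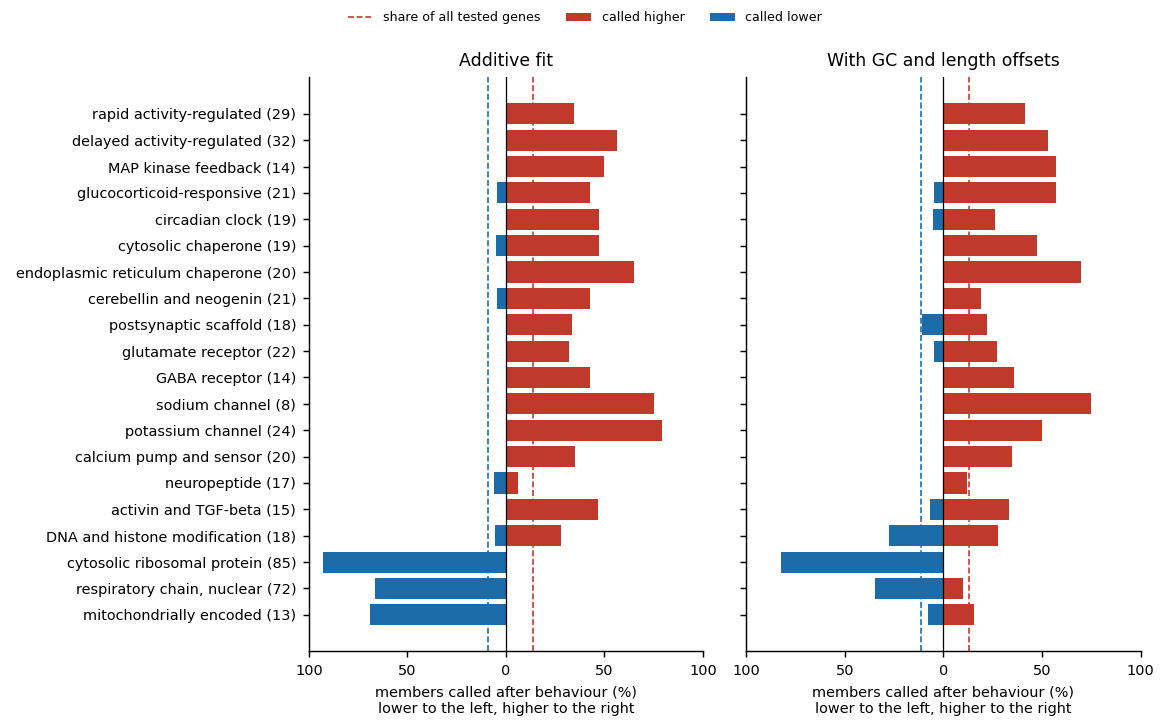
Share of each list's tested members (number in brackets) called higher (to the right) or lower (to the left) after behaviour, in the additive fit and in the fit with GC and length offsets, with dashed lines at the share of all tested genes. Potassium channel, sodium channel and endoplasmic reticulum chaperone genes reach farthest to the right in the additive fit, the last 2 of these also with offsets, and cytosolic ribosomal protein genes reach farthest to the left in both panels, while the mitochondrially encoded genes have 9 members to the left without offsets and 1 with them.

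Direction followed transcript length in each region. In the fifth of genes with the shortest longest transcript (51 to 1607 bases), 0.736% were called higher and 20.5% lower, with a median log2 fold change of -0.227. In the fifth with the longest (5016 to 123200 bases), 34.5% were called higher and 1.84% lower, with a median of 0.141. The step from the shortest to the longest class was seen in CA1 (-0.259 and 0.143), CA3 (-0.316 and 0.25), LEC (-0.118 and 0.0913) and MEC (-0.168 and 0.122). The median longest transcript was 5082 bases for shared rises, 1604 for shared falls and 3105.5 for all genes, while median GC content was 48.6%, 50% and 49.6%. By GC content the widest spread of medians was in CA3, where the fifth of lowest GC content had a median of 0.195 and the fifth of highest GC content -0.41.

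An alternative fit therefore carried an offset for each library that took out its smooth trend with GC content and length, after which the medians of the 5 length classes lay between -0.0275 and 0.0135. It called 12.8% of 17640 genes higher and 11.4% lower. Of the shared rises 1520 were called higher by it as well, and of the shared falls 789 lower. The activity, MAP kinase, glucocorticoid and chaperone lists had these calls with the offsets: 12 higher and 0 lower of the rapid list, 17 and 0 of the delayed list, 8 and 0 of the MAP kinase list, 12 and 1 of the glucocorticoid list, 14 and 0 of the endoplasmic reticulum list, and 9 and 0 of the mostly cytosolic chaperones. The ribosomal list had 70 falls with the offsets (median -0.288), and 36 falls on the 9 unit means.

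**Figure D4:**
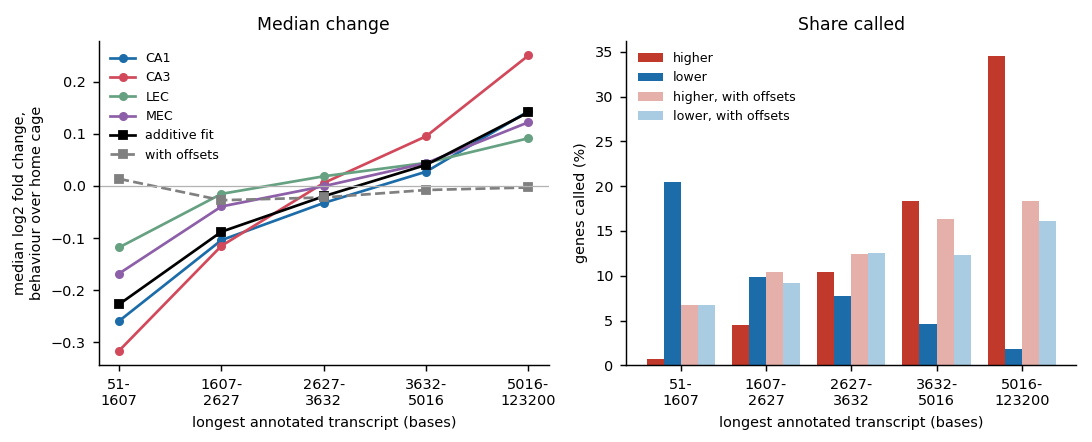
Left, median log2 fold change of behaviour over home cage in 5 classes of the longest annotated transcript (bases), for each region, the additive fit and the fit with offsets. Right, percent of genes called in each class, where calls of lower genes decline from 20.5% to 1.84% and calls of higher genes climb from 0.736% to 34.5% with length in the additive fit, and both are more even with the offsets.

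Markers of cell types moved with the groups in places. Of 8 interneuron markers, 4 were called higher: the GABA synthesis enzymes Gad1 (0.48 ± 0.07) and Gad2 (0.42 ± 0.09), the transcription factor Lhx6 (0.23 ± 0.07) and the matrix protein Reln (0.70 ± 0.13). Slc32a1, Sst, Pvalb and Vip were not called, and the median of the 8 was 0.139, with -0.0421 in LEC. The summed level of all 8 markers was 667 to 848 CPM after behaviour in CA1, against 414 to 540.2 in home cage, and 624 to 749 in CA3, against 471 to 543, without overlap. In MEC it was 991 to 1226 CPM, against 739 to 983, also without overlap, and in LEC 900.0 to 1143 CPM, against 745 to 1002, with overlap. Of the CA1 pyramidal cell markers 2 of 5 were called higher, with 479.8 to 1181 CPM after behaviour in CA1, against 329.6 to 867 CPM. The part of these cells in the rise of channel and receptor genes was not tested.

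Microglia, astrocyte and blood markers included falls. Of 9 microglia markers, 5 were called lower and 0 higher, with a summed level of 263 to 340.1 CPM after behaviour in CA3, against 293 to 423 in home cage, and 377 to 453 in CA1, against 349.8 to 501. Of 8 astrocyte markers 3 were called lower, namely Aldoc, S100b (-0.50 ± 0.07) and Gfap (-0.49 ± 0.08), and 0 higher (median -0.115). With the length and GC correction 4 were called lower and 0 higher (median -0.177). The 8 astrocyte markers summed to 4963 to 6930 CPM after behaviour in CA3, against 5057 to 5490.1 CPM (medians of 5522 and 5475). Of 5 blood markers 4 were called lower, 2 of them of one sign, with 9.73 to 20.8 CPM in CA3 after behaviour, against 32.5 to 55.3 in home cage. Neither the length and GC correction nor the 9 unit means gave a call among the 5. In LEC the blood markers summed to 12.8 to 44.8 CPM (median 25.4), against 22.9 to 30.9 (median 23.0), and in MEC to 19.5 to 57.6 (median 32.2), against 23.8 to 94.1 (median 24.5). Oligodendrocyte markers were called in neither direction (median -0.019), but their median was -0.521 in CA1 and 0.589 in MEC. No marker of the 17 lists was at 0 in all libraries of a region. Of the rest, oligodendrocyte precursors had 2 higher and 2 lower of 6, endothelial cells 1 higher of 8, meninges and mural cells 1 lower of 8, CA2 cells 1 higher of 6 and the subiculum list 1 higher of 5. The shares of endothelial (12.5%) and CA2 (16.7%) markers were near the 13.6% of all genes. Dentate granule cell, CA3, neocortical, thalamic and striatal markers had 0 called in either direction.

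**Figure D5:**
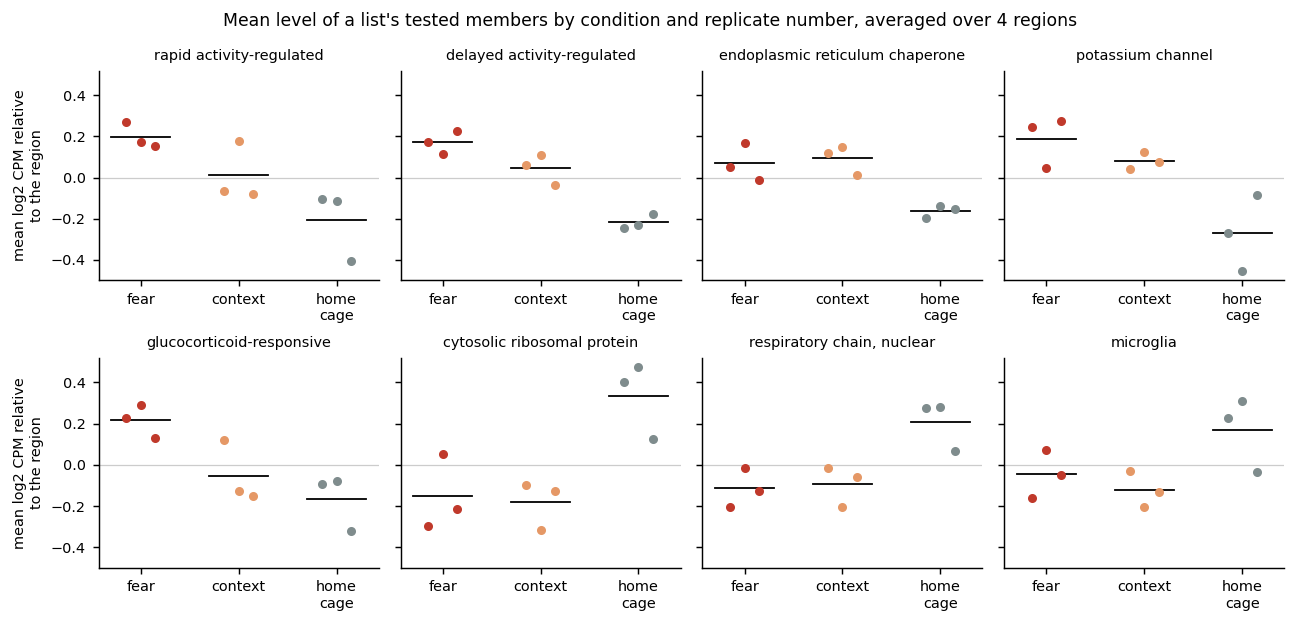
Mean log2 CPM of the tested members of 8 lists, relative to each region and averaged over the 4 regions, for the 9 units of condition and replicate number, with a line at the mean of each condition. The delayed, endoplasmic reticulum chaperone, potassium channel and rapid lists are higher in each fear and context unit than in any home cage unit, the ribosomal and respiratory lists are lower, and the glucocorticoid and microglia lists overlap.

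Fear and context share the home cage libraries, and the shared genes were chosen on both together, so that like values are in part set by the choice. The shared rises had a median of 0.297 after fear and 0.279 after context over home cage, and the shared falls -0.411 and -0.374. Set directly against each other, fear and context differed in 180 genes (1.01%), 51 higher (0.285%) and 129 lower (0.722%) after fear, and 31 of these were shared genes. They included Sgk1, which was higher after fear by 0.47 ± 0.12 (adjusted p = 0.0466), the dynein motor Dync1h1 (0.53 on the log2 scale, adjusted p = 0.0284) and the glial factor Sox9 (-0.43, adjusted p = 0.0284). The smallest adjusted p was 0.0284, and the count fell to 0 without the 4 libraries that stood apart. The glucocorticoid list had a median of 0.199 for fear over context, with 9 of 21 at an unadjusted p under 0.05 higher and 0 lower, where 23.6% of all genes reached that p in either direction.

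For single genes, Fosb rose by 1.37 ± 0.16 after fear and by 1.17 ± 0.16 after context over home cage, Egr1 by 1.11 ± 0.15 and 1.09 ± 0.15, and Calr by 0.38 ± 0.05 and 0.38 ± 0.05. Homer1 rose by 0.79 ± 0.12 after fear and by 1.08 ± 0.12 after context. Plin4 (1.45 ± 0.24 after fear and 0.98 ± 0.24 after context), Hif3a (1.12 ± 0.14 and 0.74 ± 0.14) and Neo1 (0.40 ± 0.06 and 0.31 ± 0.06) had the larger estimate after fear, and Cbln4 had 0.54 ± 0.15 and 0.48 ± 0.15. None of these 8 differences between fear and context was called, with adjusted p from 0.112 for Hif3a to 0.998 for Calr.

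Whether the change differed between regions was tested directly by an interaction of region with behaviour. No gene was called (0%, smallest adjusted p = 0.143, edgeR), while 2257 genes (12.6%) had an unadjusted p under 0.05, 401 of them shared (11.5% of the shared). A further 539 genes were called in the additive fit with estimates of mixed sign and are not members. Over the 9 units, 2732 genes (15.3%) did not overlap between behaviour and home cage, 1705 higher (9.54%) and 1027 lower (5.75%), and 2106 of the shared genes were among them. The units average the same libraries that chose the shared genes, so that number is in part set by the choice.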

How the data were processed

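RNA was extracted with TRIzol and libraries were made with the TruSeq Stranded mRNA kit, per the labels' protocols. Per the submitters' processing notes, reads went through Trimmomatic 0.33, STAR 2.7.10b (mm10) and HTSeq 2.0.1. What settings and annotation release they used, and whether counting used strand, is not given in the sources used here. The deposited values are raw counts per gene, made by the authors, in 1 table of 37315 identifiers whose 36 columns equal the 36 files of the single samples, with 0 rows that name no gene. Symbols came from a GENCODE annotation of the same assembly for 35533 identifiers, and 1782 had none.

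Counts were tested in R 4.3.3 with edgeR 4.0.16: TMM scaling, filterByExpr over the 12 groups, a robust quasi-likelihood fit with region and behaviour, and Benjamini-Hochberg adjustment at 0.05. The biological coefficient of variation was 0.229 with 31 residual degrees of freedom. Levels are CPM of TMM-scaled totals, and log2 CPM used a prior count of 2. Limma 3.58.1 and DESeq2 1.42.0 served as alternatives. Python 3.11.15 with pandas 2.3.3, numpy 2.4.6 and matplotlib 3.10.9 made tables, motif counts and plots. On simulated data the additive fit recovered 35.3% of 68 genes changed by 0.25 on the log2 scale, 83.3% of 66 changed by 0.5 and 98.5% of 66 changed by 1, among 17875 genes. The simulated libraries were drawn independently, with no shared mouse, length trend or outlying library built in, so these shares may not hold for the data. No replicate pair agreed within sampling noise (lowest chi-square per degree of freedom 9.58).

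The members, gene lists and tests were chosen with earlier results of these data known. Named genes are the 12 largest rises and 12 largest falls above a mean level of 1 log2 CPM with one sign in all 8 contrasts and no overlap between units, the 4 members of smallest p in each of 20 lists, every called member of the rapid, delayed, glucocorticoid and clock lists, and Cbln4 and Neo1; some of these are not reported here. Other genes were named after their values were seen: Arc, Egr3, Egr4, Junb and Npas4, the 38 without overlap, further chaperones, the genes with an ER stress element, single cell type markers and the genes that differed between fear and context. Alternatives were RLE scaling, no filter, a replicate block, marker covariates, offsets for GC content and length (17640 genes), single regions, conditions, units and libraries left out, limma on unit means, voom with a random block, and DESeq2. Offsets were spline trends with 5 degrees of freedom.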

Additional observations from a re-analysis of the deposited data

Results flagged for a closer look

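Egr2 was the only one of 26 genes tested for a sample far from its group to be picked out, which is about the number that chance gives, since chance picks out about 1 in 20 such groups of 6. Over the 4 regions the unit of context libraries numbered 2 had the highest Egr2 level of the 6 behaviour units, 1.45 on the log2 CPM scale relative to the mean of the groups, and the next was at 0.492. Its gap was 0.67 of the range of the 6 units, above Dixon's 95% critical value. In CA1 the highest context library held 19.96 CPM of Egr2.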

How the results depend on the processing

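Of the alternatives to the additive fit, the replicate block gave 4037 calls and 3492 of one sign (221 genes at p under 0.05 in each region), RLE scaling 4012 and 3412, no filter 3733 and 3260, GC and length offsets 4272 and 3323, offsets with the replicate block 4389 and 3370, fear alone 3699 and 3363, voom with a random block 3340 and 2997, and DESeq2 4442 and 3719. Of the 3483 shared genes, 2018 (57.9%) were also called with one sign with offsets, 3404 with the replicate block and 3445 by DESeq2. The counts moved by over 1.5 times with context alone (2314 calls, 2072 of one sign, 21 in each region), without CA1 (2038 and 1988), without MEC (2610 calls) and with limma on the 9 unit means (644 and 615, 608 of them among the 3483). The count in each region was 330 without CA3 and 738 without LEC. Leaving out 1 unit gave 2138 (without home cage 2) to 4343 calls, 1946 to 3819 of one sign and 84 (without home cage 1) to 247 in each region. Leaving out 1 library gave 3390 to 4464 calls and 3033 to 3757 of one sign.

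Fear against context was the least stable count: 180 genes became 16 with no filter, 67 with the replicate block, 569 with an oligodendrocyte covariate, 0 with a dentate covariate, 42 with offsets, 81 with offsets and the replicate block, 0 without the 4 outlying libraries and 1216 by DESeq2, and 0 to 618 (without home cage 2) with 1 unit left out. Interaction calls were 4 with offsets and the replicate block, 1 without the 4 libraries and 0 to 4 with 1 unit left out. Named genes gave 7366 values of the same call, 313 that lost it, 5 that gained one and 2 that changed sign, both for Cort (log2 fold change -0.35, 0.0482 with offsets and 0.0575 with offsets and the replicate block). Of 120 called named genes 51 kept their call in 61 settings, which leave aside fear alone and context alone (there 10 and 18 named genes lost the call), Fosb, Egr1, Homer1, Calr, Neo1, Rps28 and Rpl32 among them. Cbln4 was not called without home cage 2 or on unit means, and Egr2, Plin4, Hif3a and Fos were not called on unit means. Fbxo33 lost its call in 15 settings, single libraries left out among them. The cause was not tested.

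Replicate numbers are only numbers in the labels. Deviations of libraries of the same region and number correlated across conditions at -0.644 to 0.750 (36 pairs, median 0.0903). Those of the same condition and number correlated across regions at -0.768 to 0.671 (54 pairs, median 0.0334). Of these pairs, 17 of the 36 and 24 of the 54 were above 0.1. All pairs were above 0.1 in 2 of 12 and 4 of 18 comparisons of 2 groups, in that order. The pairing was not taken into the additive fit, and these correlations do not tell whether libraries of 1 number shared a mouse.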
